A study of Mus musculus with 50 samples.

Results

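Neutrophil-lineage cells with secondary granule genes made up 170 of the 4185 kept cells of a pooled single-cell count matrix, or 4.06%. A cell was kept when at least 1000 genes were counted in it and at most 10% of its counts were mitochondrial. A kept cell was a member when at least 3 of the genes S100a8, S100a9, Ngp, Camp, Ltf and Lcn2 each reached 1000 CPM, the unit of a cell's counts after scaling its total to 1000000. The levels of these 6 genes therefore chose the cells and are given as a description. Without the 5 libraries named Lib51 to Lib55, 121 members remained among 3744 kept cells (3.23%). The members were set against 2546 cells with the stem cell gene Procr at 50 CPM or more and a count of Mecom or Hlf, called stem rule cells here, after 49 cells that met both rules had been left among the members.

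All cells came from mice that had been lethally irradiated and had received a single haematopoietic stem cell (HSC). Its donors carried a β-actin-GFP transgene on the B6-Ly5.2 background. Helper whole bone marrow cells and the recipients were B6-Ly5.2 as well, so the labels name 1 background for donor, helper marrow and host. By the labels, 50 samples were taken: 10 of them 1 month after the transplant, 26 after 4 months and 14 after 12 months. Marrow together with spleen is the labelled tissue of 5, 4 and 6 of these, and marrow alone that of the rest. Cells were enriched for c-Kit, stained for CD201, CD150, CD48, Sca-1, c-Kit and a lineage cocktail of B220, Gr-1 and TER-119, and sorted singly by those markers or by GFP, which marks progeny of the transplanted stem cell. The library method was STRT-seq, adapted from Smart-seq2, which keeps the 3' ends of transcripts.

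The cell names hold a library and a barcode but no sample, month, tissue or sort gate, so the whole matrix was 1 pooled sample. No comparison between months was made, no p-value was computed, and members in a library are not replicates. Of 95 barcode labels, 92 occurred in more than 1 library, where they name positions and not shared cells. The 67 libraries held 624386060 counts, with 1665151 to 26184494 in a library. Intervals below are exact 95% intervals for counting error only, and amplified copies of a molecule may be counted more than once.

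Neutrophils form in the marrow by a fixed order of granule building. Promyelocytes make primary (azurophil) granules with myeloperoxidase and serine proteases, myelocytes and metamyelocytes make secondary (specific) granules with lactoferrin and cathelicidin, and later cells make gelatinase granules and acquire the receptors and cytokine genes of mature neutrophils. Division ends around the myelocyte to metamyelocyte step. The factor C/EBPε is needed for secondary granule genes in mice. Gr-1 antibodies bind Ly6G, the surface protein of mouse neutrophils, so a lineage cocktail with Gr-1 marks such cells.

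The start regions of 3 rule genes, of Retnlg and of Mmp8 are shown. The rule genes chose the members, and Ltf and Retnlg ordered them. Mmp8 is a late granule gene that did neither. The sequences are RefSeq promoter windows of mouse build GRCm38.p6, written 5′ to 3′ on the gene's strand and ending upstream of the annotated gene. They lie at chr9:111019151-111019270 on the plus strand for Ltf, chr9:110419610-110419729 on the plus strand for Ngp, chr3:90695852-90695971 on the minus strand for S100a9, chr9:7558309-7558428 on the plus strand for Mmp8 and chr16:48872358-48872477 on the plus strand for Retnlg. Capitals mark matches to TTGCNNAA, a C/EBP motif, on either strand.
Ltf: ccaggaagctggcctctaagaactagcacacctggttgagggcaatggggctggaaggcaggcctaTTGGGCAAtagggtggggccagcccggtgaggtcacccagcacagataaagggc
Ngp: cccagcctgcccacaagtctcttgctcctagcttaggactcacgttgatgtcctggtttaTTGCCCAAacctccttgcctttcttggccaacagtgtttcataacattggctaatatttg
S100a9: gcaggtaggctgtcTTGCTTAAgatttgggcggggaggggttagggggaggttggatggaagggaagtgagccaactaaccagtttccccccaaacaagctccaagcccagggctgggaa
Mmp8: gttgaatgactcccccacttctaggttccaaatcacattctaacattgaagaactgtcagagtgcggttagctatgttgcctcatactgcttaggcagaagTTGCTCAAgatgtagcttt
Retnlg: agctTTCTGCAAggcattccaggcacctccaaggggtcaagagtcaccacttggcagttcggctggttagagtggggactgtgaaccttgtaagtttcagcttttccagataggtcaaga
Among 32851 promoters, 3142 (9.56%) had a match to TTGCNNAA in the 250 bases before the start. The match stood at -75 to -68 from the RefSeq start in Ltf, at -138 to -131 and, outside the printed window, at -11 to -4 in Ngp, at -236 to -229 in S100a9, at -19 to -12 in Mmp8 and at -246 to -239 in Retnlg. Lcn2 had a match at -216 to -209, and the windows of Camp and S100a8 had none. A match describes these letters and is not a bound site.

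S100a8 and S100a9, the neighbouring genes of the calcium-binding heterodimer calprotectin (chr3:90668978-90670035 and chr3:90692632-90695721), reached 1000 CPM in all 170 members. S100a8 ran over 1145 CPM in the lowest, 22665 CPM in the median and 222107 CPM in the highest member. S100a9 ran over 1071, 13489 and 116228 CPM in the same way. Both were thus present in every member, and the rule was decided by the other 4 genes.

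Ngp, which encodes neutrophilic granule protein (chr9:110419747-110423012), reached 1000 CPM in 135 members. Camp, which encodes the cathelicidin antimicrobial peptide (chr9:109847379-109849617), did so in 134. Lcn2, which encodes the iron-trapping protein lipocalin 2 (chr2:32384633-32388252), did so in 127. The median levels of Ngp, Camp and Lcn2 over the members were 2915, 2885 and 2517 CPM. Ltf, which encodes lactoferrin, the iron-binding protein of secondary granules (chr9:111019271-111042767), was the most restricted of the 6: it reached 1000 CPM in 74 members, was counted in 159, and ran over 0, 779.1 and 24060 CPM in the lowest, median and highest member. All members thus had S100a8, S100a9 and a granule gene at this level, but lactoferrin in a minority of them.

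The 6 genes were all at 1000 CPM in 73 members, 5 were in 25, 4 in 31 and 3 in 41. The summed level of the 6 genes, called the rule sum here, had a median of 106960 CPM in members with 6 markers and of 12798 CPM in members with 3. The third highest level was at least 1014 CPM in members with 3 markers, and at most 999.7 CPM in the 111 cells with 2 markers that fell just outside. Members lay on a continuum of rule sums, of 4582 to 471026 CPM with a median of 57162 CPM. In 2 members the deciding marker rested on 3 counts or fewer. Member depth had a median of 80320 counts (range 1738 to 588576), and 35 members had under 10000 counts.

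Members occurred in 22 of the 67 libraries and were unevenly spread. TP57 held 30 of its 51 kept cells as members (58.8%, interval 44.2 to 72.4), Lib19 26 of 58 (44.8%), Lib55 22 of 90 (24.4%), Lib54 18 of 90 (20.0%) and TP55 15 of 21 (71.4%). TP55 to TP57 together held 50 members, Lib51 to Lib55 held 49, Lib19 held 26, and 13 further libraries held 45. Only 2 of the 116 kept cells of TP55 to TP57 met the stem cell rule.

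These library sets differed in what their members contained. In TP55 to TP57 the median rule sum was 142966 CPM and the median of 9 tertiary granule and late genes together was 29331 CPM. In Lib51 to Lib55 these medians were 43043 and 4461 CPM, and the 4 haemoglobin genes Hba-a1, Hba-a2, Hbb-bs and Hbb-bt had a median sum of 31296 CPM, against 723.6 CPM in TP55 to TP57. In Lib19 the members were shallow, with a median of 5430 counts, and had 841.8 CPM of late genes. The 45 members of other libraries had medians of 40884 CPM for the rule sum and 2445 CPM for late genes.

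**Figure D1:**
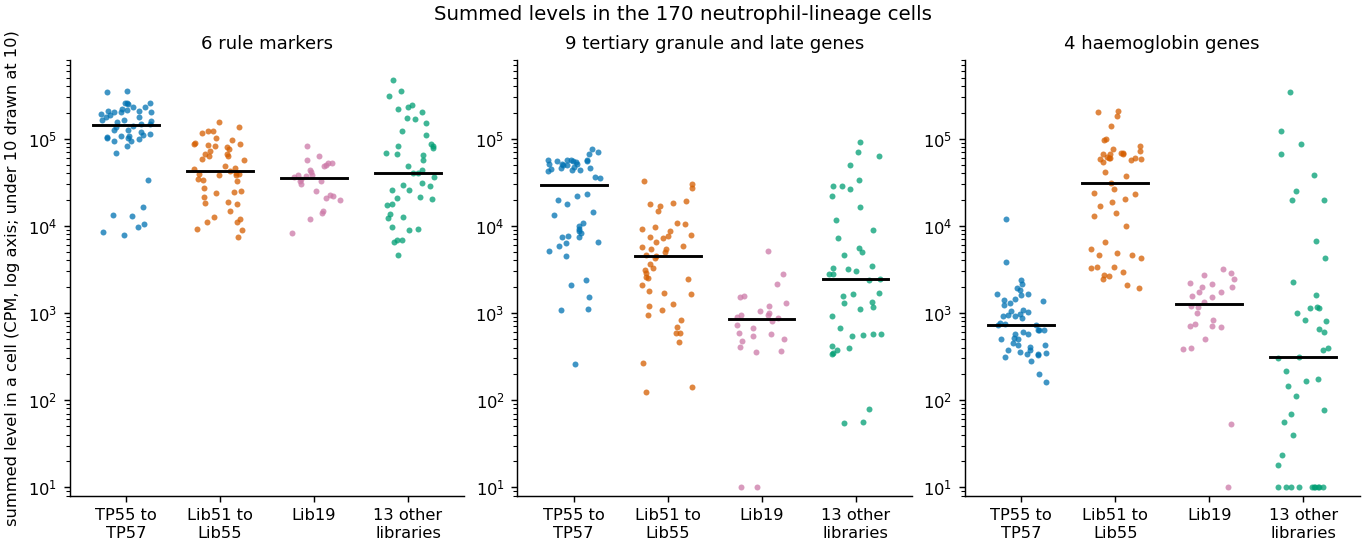
Summed levels (CPM, log axis) of the 6 rule markers, of 9 tertiary granule and late genes and of 4 haemoglobin genes in each of the 170 members, as 1 point per cell, by library set; bars are medians. Members of TP55 to TP57 had the highest medians for rule markers (142966 CPM) and late genes (29331 CPM), and those of Lib51 to Lib55 the highest for haemoglobin genes (31296 CPM).

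Rule genes were also counted in stem rule cells of the same libraries. The rule sum had a median of 832.1 CPM in the 317 stem rule cells of Lib51 to Lib55, against 0 CPM in the 2229 elsewhere. S100a8 was counted in 91.2% of those in Lib51 to Lib55 and in 37.5% of those elsewhere. At least 1 of the 6 genes reached 1000 CPM in 24.9% of those in Lib51 to Lib55 and in 2.24% of those elsewhere. The 12 stem rule cells of Lib19 had a median rule sum of 2490 CPM. The part of this low level in the member calls of Lib51 to Lib55 and Lib19 was not tested, and results are given with and without Lib51 to Lib55.

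Across all genes, the members' summed counts were set against those of the stem rule cells, for 8249 genes at 16 CPM or more in either set. A gene was called at a ratio of 2 or more, of CPM with 1 added. Of these genes, 19.7% were higher and 20.9% lower in members (without Lib51 to Lib55, 20.7% and 31.3% of 8191). The median log2 ratio over all genes tested was -0.24. Leaving the 6 rule markers out of the totals moved this median to -0.11, thinning to 10000 counts moved it to -0.34, and leaving out Lib51 to Lib55 moved it to -0.39. Genes past these levels describe 2 sets of cells of 1 pooled sample.

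Secondary granule genes outside the rule were higher in members for 12 of 12, with a median log2 ratio of 7.50. In the 6 libraries that held at least 5 cells of each kind the median was higher in 6, at 2.66 to 5.98. Each of these lay under the pooled value. The pooled value also holds members of libraries with hardly any stem rule cells, such as TP55 to TP57. Wfdc21 had 4603 CPM in members, against 4.2 CPM in stem rule cells. Chil3, which encodes a chitinase-like protein of neutrophil precursors, had 4312 and 10.8 CPM, and Cd177, a neutrophil surface protein gene, had 1198 and 0.785 CPM. Lyz2, the lysozyme gene that macrophages also use, had 9393 and 1021 CPM. The list describes cells chosen by genes of the same granules.

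Primary granule genes were higher by summed counts for 6 of 8, with a median log2 ratio of 3.49. Over single cells the order was the other way. The 8 genes together had a median of 690.6 CPM in members and 807.7 CPM in stem rule cells. Elane, which encodes neutrophil elastase, had 441.6 CPM in members, against 22.6 CPM in stem rule cells, and Mpo, which encodes myeloperoxidase, had 322.9 and 21.2 CPM. These sums came from a minority of cells: Elane was counted in 80 of 170 members and reached 1000 CPM in 6. Prtn3, which encodes proteinase 3, went the other way, with 408.5 CPM in members and 772.2 CPM in stem rule cells. Its log2 ratio was -0.92, and -1.46 without Lib51 to Lib55, where it was called lower.

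Tertiary granule and late genes were higher for 8 of 9, with a median log2 ratio of 6.23 (1.86 to 4.77 within the 6 libraries). Retnlg, which encodes a resistin-like secreted protein of neutrophils (chr16:48872621-48874496), had the largest log2 ratio of all genes tested, 10.12, with 6925 CPM in members and 5.22 CPM in stem rule cells. Mmp8 and Mmp9, which encode neutrophil collagenase and gelatinase B, had 1297 and 1048 CPM in members, against 2.15 and 2.04 CPM in stem rule cells. Cxcr2, the receptor for neutrophil-attracting chemokines, had 224.7 and 1.05 CPM. Padi4, the histone-citrullinating enzyme gene, was not called, with 215.7 CPM in members and 108.9 CPM in stem rule cells.

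Genes of mature neutrophils were higher for 10 of 10, with a median log2 ratio of 6.01 (1.80 to 5.27 within the 6 libraries). Il1b, which encodes the cytokine interleukin 1β, had 534.9 CPM in members, against 0.753 CPM in stem rule cells. Its counts were concentrated, with no count in the median member, 21422 CPM in the highest and 1000 CPM reached in 14. Stfa2l1, a stefin gene, had 853.1 and 0.174 CPM. Stefin genes have near-identical copies, so the split of reads among them is uncertain.

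Receptor and adhesion genes were higher for 9 of 9, with a median log2 ratio of 3.63. Csf3r, the receptor for G-CSF, had 402.7 CPM in members, against 52.6 CPM in stem rule cells. Ly6g had 498.1 and 0.370 CPM, and was counted in 114 of 170 members. All 6 genes of the phagocyte NADPH oxidase were higher, among them Cybb, the gene of its membrane subunit, with 1623 CPM in members and 5.57 CPM in stem rule cells.

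Among 11 transcription factor and associated genes of granulocytes that were tested, 8 were higher and 0 lower. Cebpe, the gene of C/EBPε, had 306.7 CPM in members, against 0.553 CPM in stem rule cells. Cebpb and Cebpd, which encode related factors, had 354.6 and 202.4 CPM in members, and 7.87 and 7.88 CPM in stem rule cells. Spi1, which encodes PU.1, had 538.0 and 142.3 CPM. Gfi1, a repressor needed for neutrophil formation, was higher over all members, but had a log2 ratio of -0.056 for the 71 members with no count of Procr, Mecom or Hlf. Runx1, which stem cells also use, had 106.1 and 94.1 CPM and was not called.

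Among genes that shape the nuclear envelope, 3 of 5 tested were higher. Lmnb1, the lamin B1 gene, had 161.8 CPM in members and 21.9 CPM in stem rule cells, and Lbr, the lamin B receptor gene needed for nuclear lobes, had 50.3 and 13.7 CPM. Lmnb2, with 29.1 and 30.0 CPM, was not called.

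Stem cell genes outside the stem cell rule were lower in members for 13 of 15 tested and higher for 0, with a median log2 ratio of -1.59 (-2.74, and 15 of 15 lower, without Lib51 to Lib55). Within the 6 libraries with both kinds of cell the medians were closer, at -1.33 to -0.10. Slamf1, which encodes the stem cell surface protein CD150, had 6.69 CPM in members, against 37.9 CPM in stem rule cells. Meis1, a homeobox gene of stem cells, had 94.5 and 307.1 CPM. The homeobox gene Nkx2-3 had the largest difference on the lower side, a log2 ratio of -3.32, with 13.4 CPM in members and 142.8 CPM in stem rule cells.

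Genes of ribosome production were lower as well. Of 12 ribosome biogenesis genes, 8 were lower and 0 higher, with a median log2 ratio of -1.17, and of 80 ribosomal protein genes 51 were lower and 1 was higher, with a median of -1.13. The higher gene was Rpl3l, named after its value was seen. Myc, which drives ribosome production and growth, had 105.3 CPM in members, against 327.3 CPM in stem rule cells. The ribosomal protein genes together had 101899 CPM in members and 218333 CPM in stem rule cells. Within libraries the median of the 80 genes was lower in 5 of 6 and higher in 1, at -0.95 to 0.10. Of 13 glycolysis genes 3 were higher and 0 lower in members, a share near the 19.7% of all genes, and their median was higher in 0 of 6 libraries.

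**Figure D2:**
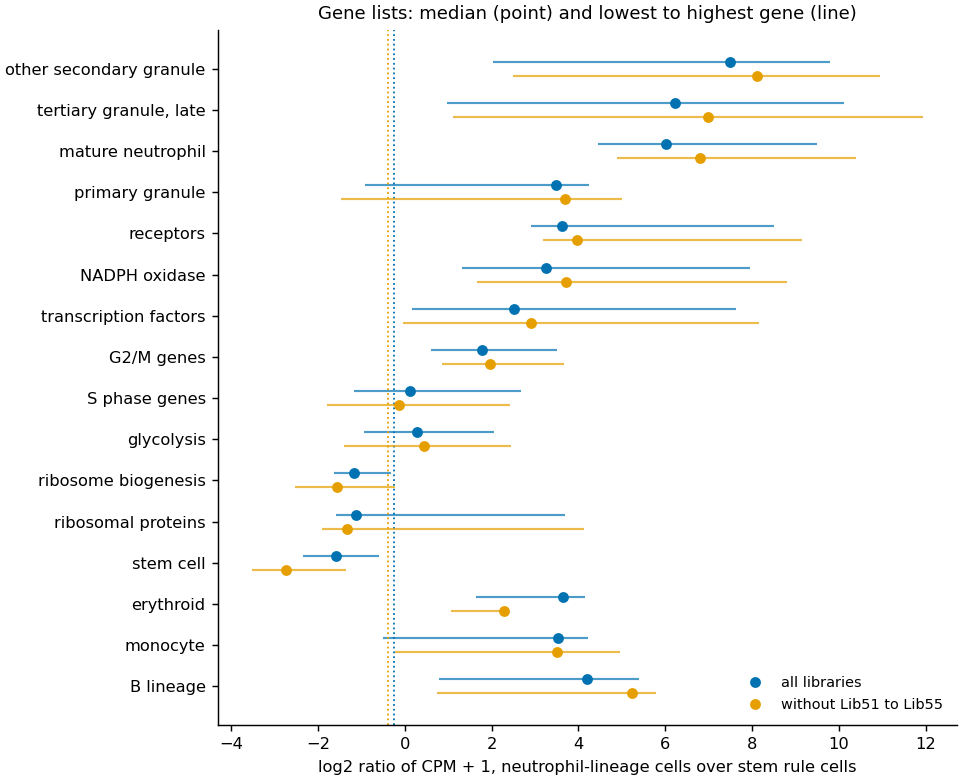
Log2 ratio of CPM + 1, neutrophil-lineage cells over stem rule cells, for 16 gene lists, with the median gene as a point and the lowest to highest gene as a line, over all libraries and without Lib51 to Lib55. Dotted lines are the medians of all genes tested (-0.24 and -0.39). Secondary granule (7.50), late (6.23) and mature neutrophil genes (6.01) lay highest, and stem cell (-1.59) and ribosome genes lowest.

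Maturation within the members was described by Ltf and Retnlg, cut at 1000 and 10000 CPM in each cell. These cuts were set after the values had been seen, and they give ranges and not cell types: 36 members lay within 2-fold of the Ltf cut and 15 within 2-fold of the Retnlg cut. Ltf and Retnlg were both low in 71 members. Ltf alone was high in 58, both were high in 16, and Retnlg alone was high in 25. The levels of these 2 genes in the ranges follow from the cuts.

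**Figure D3:**
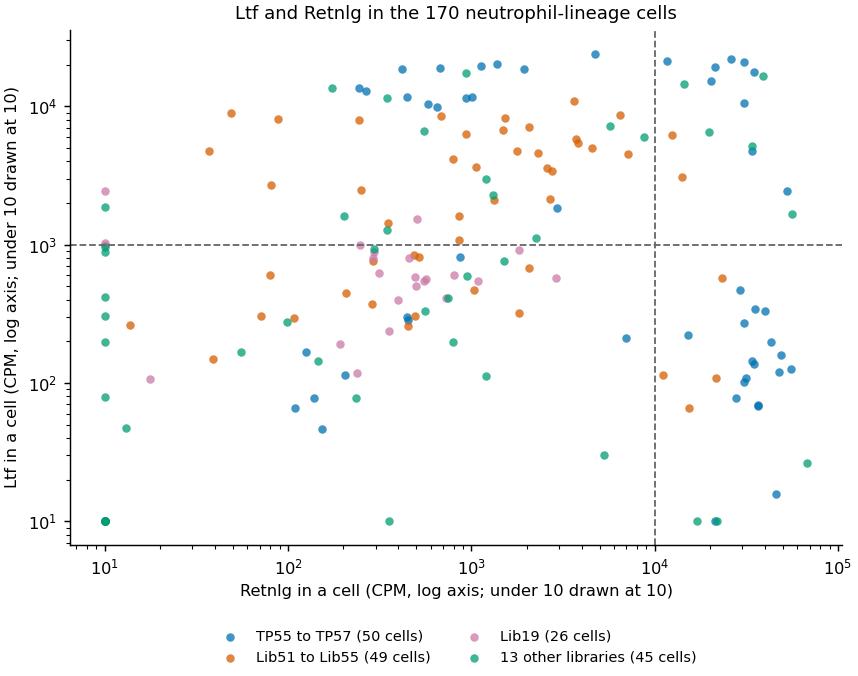
Ltf against Retnlg (CPM, log axes; under 10 drawn at 10) in the 170 members, coloured by library set; dashed lines are the cuts at 1000 CPM for Ltf and 10000 CPM for Retnlg. Members with high Retnlg and low Ltf (25 cells) came mostly from TP55 to TP57 (18 cells), and those of Lib19 stayed under the Retnlg cut.

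The ranges were unequally drawn from the libraries. TP55 to TP57 gave 9 of the Ltf-low Retnlg-low cells, 14 of the Ltf-high Retnlg-low cells, 9 of the Ltf-high Retnlg-high cells and 18 of the Ltf-low Retnlg-high cells. Lib51 to Lib55 gave 15, 28, 2 and 4 in the same order, and Lib19 gave 22, 4, 0 and 0. Differences between ranges over all libraries are thus also differences between libraries.

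In the Ltf-low Retnlg-low range the rule sum was low, with a median of 20567 CPM, and 71 cells had a median depth of 18152 counts. Elane summed to 1159 CPM there and Mpo to 578.0 CPM, but neither was counted in the median cell, and their highest cells had 12274 and 14346 CPM. In the Ltf-high Retnlg-low, Ltf-high Retnlg-high and Ltf-low Retnlg-high ranges Elane stood at 300.0, 42.3 and 43.1 CPM. The 8 primary granule genes together had 3144, 1658, 450.9 and 490.7 CPM in the Ltf-low Retnlg-low, Ltf-high Retnlg-low, Ltf-high Retnlg-high and Ltf-low Retnlg-high ranges over all libraries. Within TP55 to TP57 this order did not hold, with 675.0, 818.1, 410.7 and 511.3 CPM in the same order of ranges, and within TP57 alone the sums were 689.0, 1048, 930.7 and 738.4 CPM.

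The 58 cells of the Ltf-high Retnlg-low range had the secondary granule genes together with Cebpe. Camp ran over 1704, 11544 and 58182 CPM in the lowest, median and highest of them, and the summed level of Camp was 14341 CPM. Cebpe summed to 410.6 CPM and reached 100 CPM in 38 of the 58 cells, against 6 of 71, 7 of 16 and 3 of 25 in the Ltf-low Retnlg-low, Ltf-high Retnlg-high and Ltf-low Retnlg-high ranges. Fcnb, the ficolin B gene of early granulocytes, was highest here, at 558.6 CPM, and at 314.7, 81.6 and 5.70 CPM in those ranges. Chil3 had 5690 CPM and Orm1, an acute phase glycoprotein gene, 295.2 CPM. In the 14 cells of this range from TP55 to TP57 alone Cebpe had 1015 CPM and Fcnb 1370 CPM.

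The 16 cells of the Ltf-high Retnlg-high range had secondary granule genes along with gelatinase genes. Their rule sum, which chose the cells, had a median of 206768 CPM. The 12 secondary granule genes outside the rule summed to 54330 CPM, against 31932 CPM in the Ltf-high Retnlg-low range over all libraries, but within TP55 to TP57 to 60631 CPM, against 64996 CPM. Lcn2 summed to 23120 CPM, and ran over 8454, 23516 and 32754 CPM in the lowest, median and highest cell. Ly6g summed to 1355 CPM, the highest of the 4 ranges over all libraries and within TP55 to TP57. Cd177 summed to 2607 CPM, against 1499 CPM in the Ltf-high Retnlg-low range, and within TP55 to TP57 to 3063 CPM, against 3526 CPM. Camp went the same way, with 19725 and 14341 CPM over all libraries but 20988 and 26256 CPM within TP55 to TP57. Mmp8 had 4357 CPM, against 257.2, 856.9 and 3298 CPM in the Ltf-low Retnlg-low, Ltf-high Retnlg-low and Ltf-low Retnlg-high ranges, and Mmp9 had 3272 CPM.

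The 25 cells of the Ltf-low Retnlg-high range had little Camp, Chil3 and Fcnb. Lcn2 and the calprotectin genes belong to the member rule. With Ltf low by the cut and little Camp, their levels here follow in part from that rule. S100a8 summed to 53241 CPM and Lcn2 to 7001 CPM, while Camp summed to 687.4 CPM and Chil3 to 266.2 CPM. Csf3r ran over 179.4, 1216 and 5091 CPM in the lowest, median and highest cell and was counted in all 25. Its summed level was 1735 CPM, against 129.5, 234.3 and 241.2 CPM in the Ltf-low Retnlg-low, Ltf-high Retnlg-low and Ltf-high Retnlg-high ranges.

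Cytokine and chemokine genes were concentrated in the same 25 cells. Il1b summed to 3112 CPM and reached 1000 CPM in 13 of them, 12 of which were in TP55 to TP57. Over the other ranges 1 further cell of 145 reached that level. Cxcl2, a chemokine gene that draws neutrophils, summed to 3001 CPM, against 22.0, 36.8 and 243.6 CPM in the other ranges taken in the order above. Cebpb had 1204 CPM, and Clec4d, a C-type lectin receptor gene of myeloid cells, had 1158 CPM. The 10 mature neutrophil genes together summed to 17586 CPM in this range, and to 20528 CPM over its 21 cells outside Lib51 to Lib55.

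**Figure D4:**
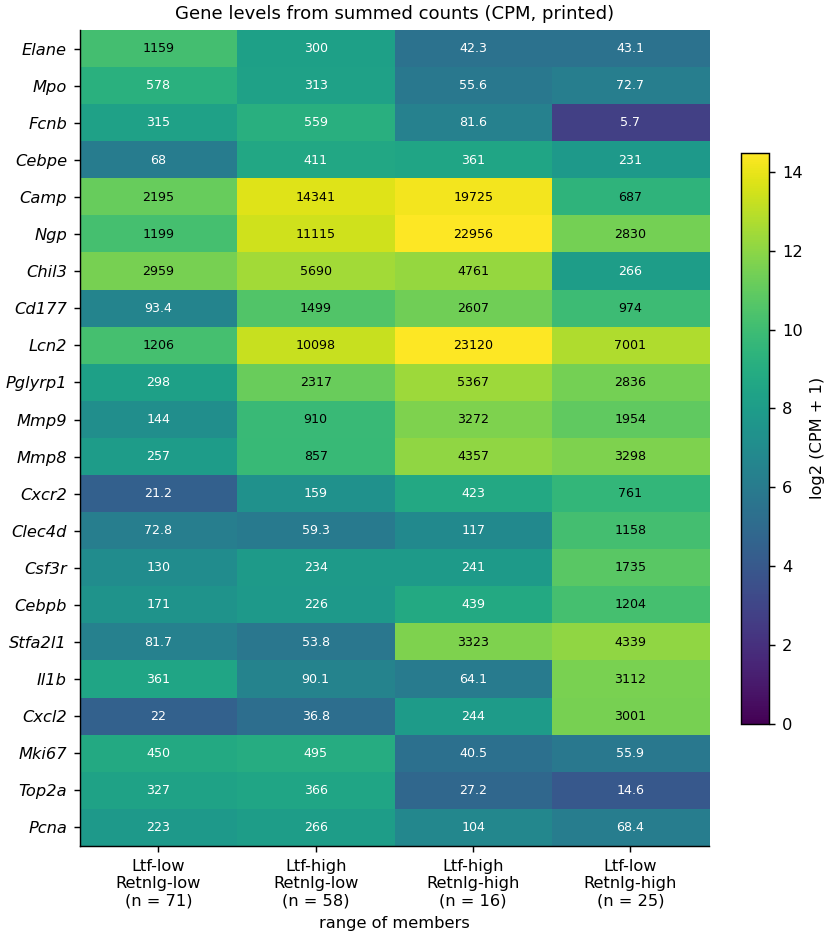
Levels of 22 genes from summed counts (CPM printed, colour on the log2 (CPM + 1) scale) in the 4 ranges of members. Over all libraries Camp, Ngp and Lcn2 are highest in the Ltf-high Retnlg-high range (within TP55 to TP57 Camp is higher in the Ltf-high Retnlg-low range), Csf3r, Il1b, Cxcl2 and Clec4d in the Ltf-low Retnlg-high range, and Elane, Mpo and the cycling genes in the ranges with low Retnlg.

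Over single members Ltf went with Camp, with a Spearman correlation of 0.90 (170 cells), 0.87 without Lib51 to Lib55 (121 cells) and 0.94 within TP57 (30 cells). Ltf and Cebpe had 0.51, and Retnlg and Csf3r had 0.62. Retnlg and Ltf had 0.17 over all members. Within TP57 the value was 0.12. Over members with rule sums of 50000 CPM or more, a set that depends on Ltf itself, it was -0.36 (89 cells), -0.34 without Lib51 to Lib55 (68 cells) and -0.59 in TP55 to TP57 (42 cells). The sign thus differed with the cells taken. These values describe cells that share libraries and differ in depth, and the rule itself selects on Ltf and Camp.

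The members were also divided by the sum of 8 primary granule genes, with 54 cells at 1000 CPM or more (primary-high) and 116 below (primary-low). This cut falls within the bulk of the cells, since 88 of 170 lay within 2-fold of it, and Prtn3 alone carried many over it: without Prtn3, 33 members reached 1000 CPM. The median rule sum was 39026 CPM in primary-high and 68381 CPM in primary-low members. Their median depths were 50846 and 96645 counts.

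Of 7834 genes tested between these sets, 9.01% were higher and 11.7% lower in primary-high members. Leaving out Lib51 to Lib55, the shares were 21.9% and 17.0% of 7441. The 8 primary granule genes made the split and are not a finding. The 9 late genes had a median log2 ratio of -0.90, with 0 higher and 2 lower (4 lower without Lib51 to Lib55), beside a median of 0.01 over all genes. Retnlg had 4335 CPM in primary-high and 8076 CPM in primary-low members. The 10 mature neutrophil genes had a median of -0.63, with 0 higher and 2 lower. The secondary granule genes outside the rule had a median of 0.06, with 1 higher and 1 lower: Fcnb had 798.6 CPM in primary-high and 218.8 CPM in primary-low members, and Abca13, a lipid transporter family gene, had 18.9 and 69.1 CPM. Cebpe was alike in both, with 316.0 and 302.6 CPM.

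S phase genes stood higher in primary-high members, with 9 of 20 higher and 0 lower, a median log2 ratio of 0.98, and higher medians in 3 of 3 libraries with at least 5 cells of each set. The count was 18 of 20 without Lib51 to Lib55, with a median of 1.54. Ribosome biogenesis genes had 3 of 11 higher and 0 lower, with a median of 0.61 (9 of 11 and 1.25 without Lib51 to Lib55). Other sets of genes moved with the split too: 5 of 10 erythroid, 4 of 7 B lineage and 3 of 3 T lineage genes were lower in primary-high members, and their part in these values was not tested.

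Several of the largest ratios between these sets rested on single cells. One primary-high cell held 99.0% of that set's counts of the IgE receptor gene Fcer1a, 95.4% of those of Mcpt8 and 95.8% of those of Prss34, both basophil protease genes. The log2 ratios of Mcpt8 and Prss34 without Lib51 to Lib55 were -0.05 and -0.47. On the lower side the skeletal muscle genes Myh4, Pvalb and Ckm had 103.7, 79.9 and 62.1 CPM in primary-low members, of which 1 cell each held 99.4%, 93.7% and 96.9%. For Elane, with 1349 CPM in primary-high and 38.4 CPM in primary-low members, 1 cell held 51.2% of the primary-high counts.

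Cycling was called in a cell when at least 5 of 20 genes of the G2 and M phases reached 20 CPM. This held for 84 of 170 members, or 49.4% (interval 41.7 to 57.2), against 264 of 2546 stem rule cells, or 10.4% (9.21 to 11.6). Thinned to 10000 counts a cell, with at least 3 of the genes counted, the shares were 54.1% of 135 members (45.3 to 62.7), after 35 shallower ones were left out, and 12.7% of 2509 stem rule cells (11.4 to 14.1), after 37 were. Without Lib51 to Lib55 the member share was 49.6%, and in those libraries alone 49.0%. The share was thus nearly the same with and without them, but the 20 genes summed to 2770 CPM without them and 1969 CPM in them. The share also varied over the other libraries. It was 76.9% in Lib19, 50.0% in TP55 to TP57 and 33.3% in the 45 members elsewhere.

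The G2 and M genes followed the same direction by level. Their summed level was 2403 CPM in members and 605.3 CPM in stem rule cells, and 16 of 18 tested were higher in members and 0 lower, with a median log2 ratio of 1.79. Mki67, which encodes the proliferation antigen Ki-67, had 394.4 CPM in members, against 33.6 CPM in stem rule cells. Top2a, the DNA topoisomerase IIα gene, had 287.2 and 68.9 CPM, and Ube2c, a ubiquitin-conjugating enzyme gene of mitotic exit, had 279.0 and 48.8 CPM. The levels were uneven among members, with Mki67 at 0, 10.3 and 5676 CPM in the lowest, median and highest.

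The difference varied between libraries that held both kinds of cell. In Lib54 10 of 18 members were called, against 5 of 61 stem rule cells, with 1857 and 390.0 CPM of the 20 genes. In Lib19 the counts were 20 of 26 and 3 of 12, with 1412 and 270.4 CPM. Median depths there were 5430 counts in members and 105029 in stem rule cells, so fewer counts of a gene reached 20 CPM in members. Only 6 of the 26 members were deep enough to be thinned. Thinned, all 6 of them and 2 of the 12 stem rule cells were called. In Lib17 7 of 8 members and 10 of 19 stem rule cells were called, but the summed level was 816.2 CPM in members and 848.3 CPM in stem rule cells. Depth differed in Lib17 too, with medians of 7948 and 38769 counts. In Lib18 2 of 6 and 15 of 49 were called, with 317.4 and 460.0 CPM. Among the libraries with hardly any stem rule cells, TP57 had 17 of 30 members called and Lib1 had 1 of 11.

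S phase genes did not set the members apart in the same way. At least 5 of 20 S phase genes reached 20 CPM in 60% of members (52.2 to 67.4), against 66.8% of stem rule cells (64.9 to 68.6). Thinned, the shares were 60.7% and 75.8%. The member share was 52.1% without Lib51 to Lib55 and 79.6% in them. By summed level the order was the other way, with 1623 CPM in members and 1394 CPM in stem rule cells, so no order is read from the shares.

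Cycling differed between the ranges of maturation. G2 and M genes were called in 39 of 71 Ltf-low Retnlg-low members (54.9%, interval 42.7 to 66.8) and in 35 of 58 Ltf-high Retnlg-low members (60.3%, 46.6 to 73.0). They were called in 1 of 16 Ltf-high Retnlg-high members (6.25%, 0.158 to 30.2) and in 9 of 25 Ltf-low Retnlg-high members (36.0%, 18.0 to 57.5). The summed levels of the 20 genes were 2649, 3053, 242.4 and 332.1 CPM in the same order. By level both ranges with high Retnlg were low, and Mki67 reached 100 CPM in 20, 33, 2 and 3 of their cells.

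The 9 called cells with low Ltf and high Retnlg all came from TP55 to TP57, where the 20 genes summed to 412.1 CPM over the 18 cells of that range. Thinned to 10000 counts, 11 of the 25 cells and 10 of the 18 were called. In TP57 6 of 9 cells of this range and 6 of 9 Ltf-high Retnlg-low cells were called on all counts, with sums of 393.3 and 5378 CPM. The share there goes against the level, and neither cycling nor its absence is read from it. Within TP55 to TP57 the summed level was 4473 CPM in the 9 Ltf-low Retnlg-low cells, 6529 CPM in the 14 Ltf-high Retnlg-low cells, 235.9 CPM in the 9 Ltf-high Retnlg-high cells and 412.1 CPM in the 18 Ltf-low Retnlg-high cells. Over all libraries but Lib51 to Lib55 the sums were 3221, 4406, 224.4 and 364.1 CPM. In the Ltf-low Retnlg-low range of TP55 to TP57, 3 of 9 cells had both Jchain, the joining chain gene of antibody-producing cells, and Cd74, a gene of antigen presentation, at 1000 CPM or more, and 0 of the 41 cells of the other ranges did. Jchain summed to 3902 CPM in that range, against 108.2, 124.7 and 118.0 CPM in the Ltf-high Retnlg-low, Ltf-high Retnlg-high and Ltf-low Retnlg-high ranges. The G2 and M sum was 301.2 CPM in those 3 cells and 6328 CPM in the other 6. The lower G2 and M levels in cells with high Retnlg were therefore found within 1 group of libraries as well. Over all libraries, 33 of the 71 Ltf-low Retnlg-low cells had Jchain or Cd74 at 1000 CPM or more. In the other ranges, in the order above, 16 of 58, 0 of 16 and 2 of 25 did. Of those 33 cells 21 were called, with a G2 and M sum of 738.2 CPM. Of the other 38 cells 18 were called, with 3414 CPM. The part of these cells in the share of that range was not tested.

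**Figure D5:**
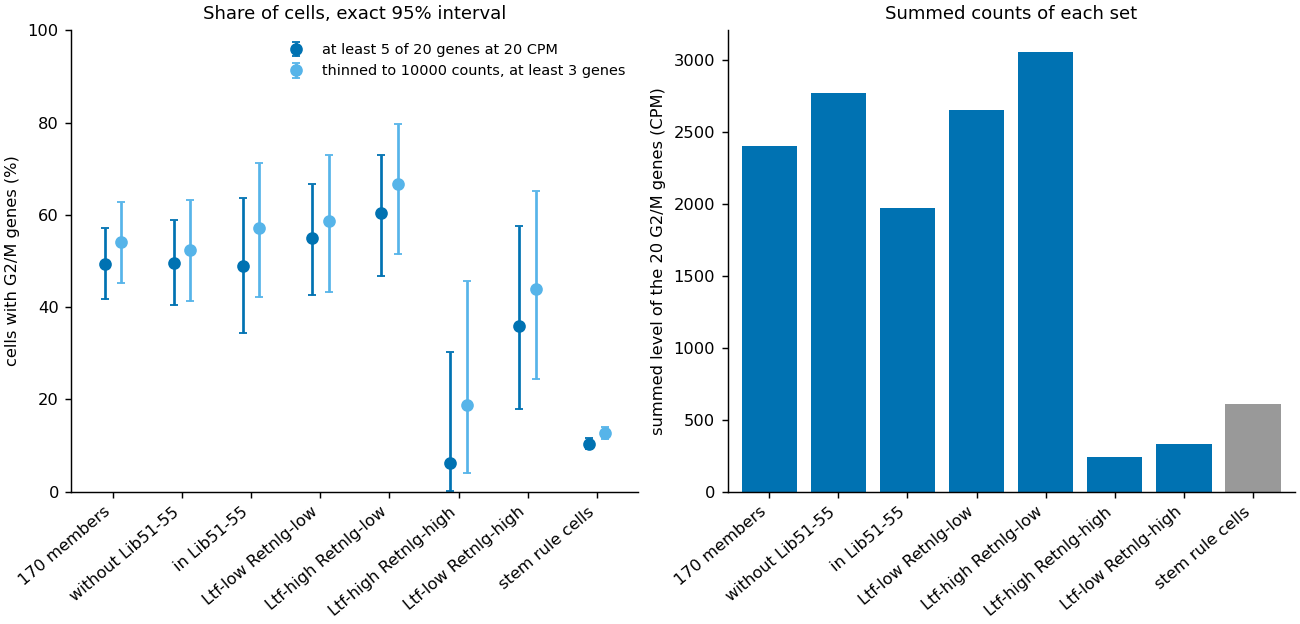
Left, share of cells with G2 and M genes (percent, exact 95% intervals), from all counts and thinned to 10000 counts, in members, library sets and maturation ranges, beside stem rule cells; right, summed level of the 20 genes (CPM). Members stood at 49.4% and 2403 CPM and stem rule cells at 10.4% and 605.3 CPM. The Ltf-high Retnlg-high range stood at 6.25% and 242.4 CPM, and the Ltf-low Retnlg-high range at 36.0% and 332.1 CPM.

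In primary-high members G2 and M genes were called in 38 of 54 (70.4%, 56.4 to 82.0), against 46 of 116 primary-low members (39.7%, 30.7 to 49.2). Thinned, the shares were 75.7% and 45.9%, and without Lib51 to Lib55 they were 71.4% and 38.0%. The summed levels were closer, with 2601 CPM in primary-high and 2315 CPM in primary-low members, and 3 of 18 G2 and M genes were higher and 0 lower.

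Among inhibitors of the cell cycle, 2 of 4 tested were higher in members than in stem rule cells. Within libraries the median of the list was higher in 3 of 6, at -1.06 to 0.88. Cdkn1b, which encodes p27, had 110.3 CPM in members and 21.4 CPM in stem rule cells, and Cdkn2d, which encodes p19-INK4d, had 272.5 and 119.8 CPM. In the ranges Cdkn1b had 68.0 CPM in Ltf-low Retnlg-low, 99.0 CPM in Ltf-high Retnlg-low, 132.4 CPM in Ltf-high Retnlg-high and 222.4 CPM in Ltf-low Retnlg-high cells. Within TP55 to TP57 the levels were 105.9, 81.2, 193.7 and 262.9 CPM in the same order, and within TP57 alone 83.3, 9.27, 52.7 and 180.1 CPM. In the range with the highest level the median cell had 10.7 CPM and 2 cells had over 1000 CPM.

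The 49 cells that met both rules lay in Lib51 to Lib55 for 33 and in other libraries for 16. Procr ran over 51.1, 204.0 and 566.7 CPM in the lowest, median and highest of them, and summed to 222.3 CPM, against 335.8 CPM in stem rule cells. Their rule sum had a median of 38919 CPM, and 22 of 49 were called for G2 and M genes. In Lib51 to Lib55 Procr was counted in 45 of 49 members, while it was counted in 21 of the 121 members elsewhere and in 0 of the 50 of TP55 to TP57. Cells with both programmes were not tested for RNA of more than 1 cell. Single-cell sorting with a side scatter gate against doublets is named in the labels.

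Leaving out all 99 members with a count of Procr, Mecom or Hlf left 71 cells. Their rule sum had a median of 83057 CPM and 35 of 71 (49.3%) were called for G2 and M genes. The cycling share was thus alike with and without cells that carry stem cell genes, but the level was not. The G2 and M genes summed to 3527 CPM in these 71 cells, against 2403 CPM in all members. In the cells that met both rules the sum was 1329 CPM. The 71 cells were also shallower, with a median depth of 43408 counts, against 80320 in all members, and 26 had under 10000. In TP55 to TP57, where Procr was counted in 0 of 50 members, the sum was 3661 CPM. Depth and library were thus not separated from the stem cell genes here.

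Markers of other lineages were present in some members. A sum of 1000 CPM or more was reached in 18 of 170 members for 7 B lineage genes, in 17 for 8 monocyte genes, in 15 for 6 T lineage genes, in 11 for 6 macrophage genes, in 5 for 6 basophil and mast cell genes, in 4 for 8 eosinophil genes and in 4 for 6 megakaryocyte genes. In stem rule cells these counts were 9, 21, 8, 45, 5, 6 and 149 of 2546. At least 1 of the 7 lists was at this level in 48 members (28.2%), whose rule sum had a median of 35052 CPM, against 82422 CPM in the other 122. In 0 of 170 members did any of the 7 sums exceed the rule sum. Members were chosen for high rule genes, so this follows in part from the rule and does not test their lineage. The lists do not hold Jchain and Cd74, which were added after their values were seen. Jchain was at 1000 CPM or more in 17 members and above the rule sum in 3, and Cd74 was at 1000 CPM or more in 48 members and above the rule sum in 1. In stem rule cells Jchain reached 1000 CPM in 62 and Cd74 in 453 of 2546. G2 and M genes were called in 34 of the 51 members with either gene at this level (66.7%) and in 50 of the other 119 (42.0%), with 2162 and 2463 CPM of the 20 genes. The part of such cells in the results was not tested beyond these values. Of the 15 with T lineage genes, 10 came from Lib19, where members were shallow. The highest sums in a member were 11243 CPM for B lineage, 4663 CPM for monocyte, 5791 CPM for T lineage, 21858 CPM for macrophage and 19931 CPM for basophil and mast cell genes, and every gene of the lists had a count in members. G2 and M genes were called in 26 of the 48 members with such a list (54.2%) and in 58 of the other 122 (47.5%).

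Erythroid genes had the highest sums among the lists of other cell types. The sum of the 10 genes ran over 0, 1488 and 347339 CPM in the lowest, median and highest member, and over 0, 194.1 and 327175 CPM in stem rule cells. Of the 10 genes, 10 were higher in members than in stem rule cells over all libraries, and their sum reached 1000 CPM in 102 of 170 members and exceeded the rule sum in 36, 30 of them in Lib51 to Lib55. Without Lib51 to Lib55, 4 of the 10 reached the level tested and all 4 were higher in members. Haemoglobin genes have near-identical copies, so their separate levels are uncertain. Among the 71 members with no count of Procr, Mecom or Hlf, Hba-a1 and Hbb-bs had log2 ratios of -0.56 and -0.36, on the lower side. The part of erythroid RNA in the levels of the members was not tested. Without Lib51 to Lib55 the 12 secondary granule genes had a median log2 ratio of 8.11, against 7.50 with them. The 8 primary granule genes together had 1596 CPM in members without these libraries and 1753 CPM in all members.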

How the data were processed

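One table of raw counts per gene and cell was deposited by the authors for the whole series, with no normalization and with whole numbers only. The submitters' processing notes name GRCm38 as the build, and as tools HTSeq 0.9.1, HISAT2 2.1.0 and Trimmomatic 0.36. The sources used here do not say whether reads or molecules were counted, nor whether strand was used. Counts were in 19224 genes and 4271 cells of 67 libraries. The 17 columns of 1 further library were not used. Of the cells, 76 fell under 1000 genes and 10 more had over 10% mitochondrial counts. Doublets were not called computationally, so RNA of more than 1 cell in a column was not tested. Single-cell sorting with a scatter gate is stated in the labels.

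CPM were computed from each cell's total. Sets of cells were compared by summed counts, as log2 ratios of CPM plus 1 for genes at 16 CPM or more in either set, called at 2-fold. Libraries with at least 5 cells of both sets gave the directions within libraries. Cycling was called on all counts and after seeded thinning to 10000 counts. The comparison was run on simulated summed counts with known folds and Poisson counting error only. That setting held no differences between cells or libraries, so it does not cover ratios that rest on single cells. With 1 pooled sample no test was possible. Shares have exact Clopper-Pearson intervals at 95%. Calculations used Python 3.11.15, numpy 2.4.6, scipy 1.17.1, pandas 2.3.3 and matplotlib 3.10.9. Gene positions came from a GRCm38 annotation and promoters from RefSeq.

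Every gene of the lists that reached 16 CPM, and the 10 largest ratios each way in a comparison, could be named, but single values of some list genes are not reported here. Jchain and Cd74 were named after their values were seen. The members and lists were chosen with earlier results of these data known. Alternatives covered the cell filter, marker level and number, pseudocount, level filter, weighting, total, thinning and libraries left out.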

Additional observations from a re-analysis of the deposited data

How the results depend on the processing

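The share of members, 4.06%, was 5.88% at 500 CPM, 3.03% at 2000 CPM, 6.71% with 2 markers, 3.08% with 4 markers, 3.23% without Lib51 to Lib55, 3.39% without TP57, the library with most members, and 3.36% for cells of at least 10000 counts, a limit added after the data were seen. Between members and stem rule cells, genes higher and lower numbered 1622 and 1725, and 2645 and 2656 with no filter on level. Genes lower numbered 1028 with a pseudocount of 10 CPM, 3337 for members with no count of Procr, Mecom and Hlf and 2692 for members with rule sums of 50000 CPM or more, a set added after the data were seen. Between primary-high and primary-low members the counts of 706 higher and 913 lower were 359 and 453 with a pseudocount of 10 CPM and 1619 and 2464 with no filter, and 1630 were higher without Lib51 to Lib55.

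Calls in single cells moved with their thresholds. With the level at 0.5 and 2 times that reported, primary-high members were 61.18% and 9.41% (31.76% as reported), late-high members 88.24% and 62.94% (75.29%), cells with G2 and M genes 62.35% and 37.65% (49.41%) and cells with S phase genes 75.29% and 44.71% (60%). With rule sums of 50000 CPM or more these shares were 23.60%, 94.38%, 41.57% and 50.56%. Without Prtn3, added after the data were seen, 19.41% were primary-high, and without Lib51 to Lib55 52.07% had S phase genes.

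For list genes and the largest ratios, 21 values between members and stem rule cells changed sign. Without Lib51 to Lib55 the log2 ratios of Epor and Alas2 were -1.78 and -0.12. For members with no count of Procr, Mecom and Hlf those of Pvalb, Epor, Dqx1, Alas2, Neb, Gfi1, Ckm, Hbb-bs, Myh4, Myl1, Hba-a2, Hba-a1 and Hbb-bt were -2.80, -1.67, -0.18, -2.35, -2.92, -0.056, -2.61, -0.36, -3.88, -0.64, -1.25, -0.56 and -1.13. For rule sums of 50000 CPM or more those of Pvalb, Dqx1, Neb, Ckm, Myh4 and Myl1 were -0.070, -0.33, -1.33, -1.09, -3.34 and -0.37. Between primary-high and primary-low members 16 values changed sign or became 0: Prg2 and C1qc were 0.10 and 0.22 with equal weight per cell; Cpa3, Mcpt8, Ms4a2, Ermap, Olfr267 and Prss34 were -0.0023, -0.052, -1.67, 0.015, 0 and -0.47 without Lib51 to Lib55; Ms4a1 and Ccnb2 were 0.14 and -0.24 without TP57; and Cd79a, Nolc1, Prg2, Cd2, C1qc and Nkx2-3 were 0.54, -0.027, 0.082, 0.74, 0.57 and 0.025 after thinning. The cause was not tested. No paired analysis was possible because cells were not tied to samples. Depth limits the primary split, since 17 of 54 primary-high and 18 of 116 primary-low members had under 10000 counts.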
